A study of Homo sapiens with 6 samples.

Results

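The aldehyde dehydrogenases compared here were 10 genes, ALDH1A1, ALDH1A3, ALDH1B1, ALDH2, ALDH3A1, ALDH3A2, ALDH3B1, ALDH7A1, ALDH9A1 and ALDH18A1, taken by symbol from the 58884 rows of the expression matrix. Each symbol gave its row with the highest mean. The study asked how activation of the transcription factor NRF2 alters human esophageal squamous cell carcinoma cells. KYSE450 is a line of such cells with wild-type NRF2, and KEAP1null-KYSE450 is a single clone of it in which KEAP1, the protein that holds NRF2 in check, was targeted by CRISPR-Cas9 with a guide to exon 2. Both lines were untreated and grown in RPMI1640 medium with 10% fetal bovine serum, penicillin and streptomycin. RNA sequencing of total RNA gave 3 libraries for each line. Because 1 clone stands for the edited line, the edit and the history of that clone cannot be told apart, and the labels do not say whether the 3 libraries of a line came from separate cultures. The p-values therefore measure the spread between libraries, which may be technical.

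Aldehyde dehydrogenases oxidize aldehydes to carboxylic acids with NAD or NADP as the acceptor. Their substrates come from food and drink (acetaldehyde from ethanol), from lipid peroxidation, from vitamin A (retinaldehyde, the precursor of retinoic acid) and from the breakdown of amino acids, amines and fatty alcohols. Squamous epithelia such as esophagus and cornea are known for high ALDH3A1, ALDH activity is used as a marker of stem-like tumour cells, and ALDH1A1 and ALDH3A1 can inactivate oxazaphosphorine drugs. NRF2 is a known inducer of several members in other tissues.

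The libraries held between 53027359 and 61543442 reads assigned to genes. Values are normalized counts, which are reads divided by 1 size factor per library. A floor of 3 reads corresponded to between 2.77 and 3.21 normalized counts and covers counting error only. KEAP1 mRNA did not separate the lines (log2 fold change -0.017, 95% confidence interval -0.22 to 0.19), and its sign changed under some alternative settings. The paper reports that it checked the knockout by Sanger sequencing and, for the protein, by Western blotting. All 10 squamous epithelial markers were detected, with summed normalized counts of 392449 to 533950 in KYSE450 and 595968 to 743879 in KEAP1null-KYSE450. KRT5 gave 174377 to 250359 of this in KYSE450 and 519548 to 648677, most of the sum, in KEAP1null-KYSE450. The other 9 summed to 218072 to 283591 in KYSE450 and 76421 to 95202 in KEAP1null-KYSE450. KRT5 was called higher and KRT14, KRT6A, KRT17 and DSP lower, where 12.2% of all tested genes were called higher and 5.98% lower. By adjusted p alone 7 of the 10 were lower, TP63, SOX2 and CDH1 among them, and 2 higher. The shares of all tested genes by that rule were 25.5% lower and 24.3% higher. The part of these markers in the results was not tested. Of 13 markers of fibroblasts, endothelial cells, immune cells and melanocytes, 5 were at or below the floor in both lines, with PECAM1 and MLANA at 0. The sums of the 13 were 800.0 to 1012 in KYSE450 against 562 to 625 in KEAP1null-KYSE450, mostly from COL1A1 (607 to 839 against 333 to 431). VWF (35.4 to 53.6 against 39.7 to 67.6) and PMEL (107 to 166 against 123 to 173) were above the floor in every library. Only 4 of the 13 reached the mean normalized count of 10 needed for a test. Of these 4, CDH5 was called lower (log2 fold change -2.77, means of 19.9 and 1.97) and 0 were called higher. The shares of all tested genes were 5.98% lower and 12.2% higher. CDH5 passed the filter only through KYSE450, where it is high, so its call is no independent support. COL1A1 was lower by adjusted p alone (-0.85). The part of such cells in the results was not tested. In bulk RNA, fewer cells of a type and less RNA per cell cannot be told apart.

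All 10 members passed the filter of a mean normalized count of at least 10, and none passed it only through 1 line. A gene was called when limma gave it a p under 0.05 after Benjamini-Hochberg adjustment over 16701 tested genes and its absolute log2 fold change was at least 1. ALDH1A1, ALDH3A1 and ALDH3A2 were called higher in KEAP1null-KYSE450 cells and ALDH1A3 and ALDH3B1 lower, so 5 of 10 members were called where 18.2% of all tested genes were (12.2% higher and 5.98% lower). ALDH7A1, ALDH18A1 and ALDH1B1 passed the adjusted p but not the fold, and ALDH2 and ALDH9A1 did not pass the adjusted p. The latter 2 passed it under 1 of 17 alternatives, quantile normalization. By adjusted p alone 8 of 10 members passed, 4 in each direction (ALDH1B1 not under every alternative), where 49.8% of all tested genes did (24.3% higher and 25.5% lower). The median log2 fold change over the 10 members was 0.17, and over all tested genes it was 0.0041. Libraries of the lines did not overlap for any of the 10 members (6 higher, 4 lower in the edited line), which was also true of 57.8% of all tested genes (28.4% higher and 29.3% lower). The family thus held changes in both directions with a spread from -2.41 to 4.92.

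**Figure D1:**
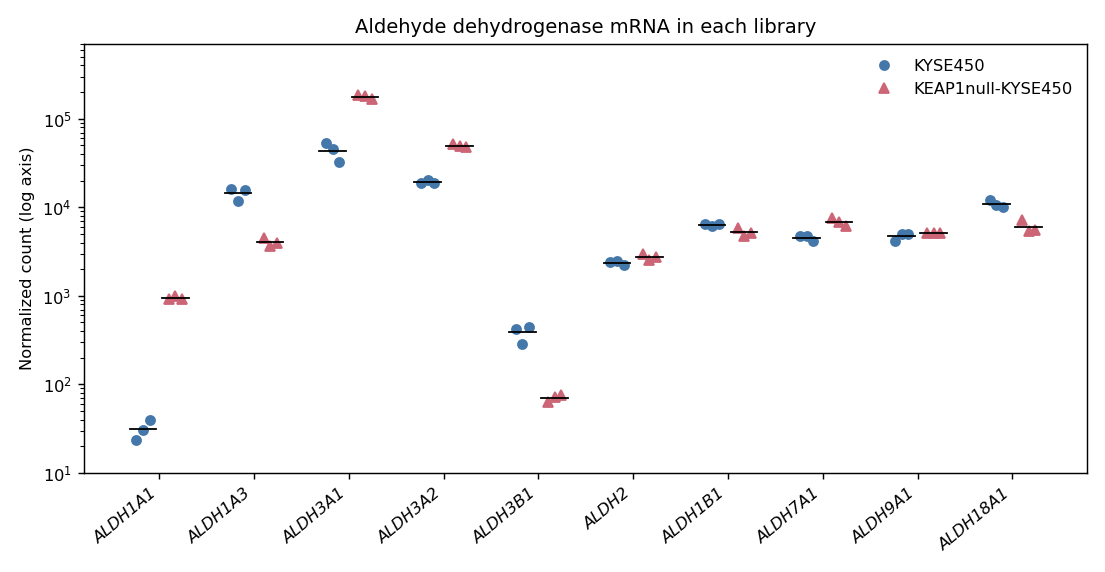
Normalized counts (vertical axis, logarithmic) of the 10 members in each of the 3 KYSE450 libraries (circles) and 3 KEAP1null-KYSE450 libraries (triangles), with the mean of each line as a bar. ALDH1A1 sits at 23.5 to 39.2 in KYSE450 and at 919 to 995 in KEAP1null-KYSE450, and ALDH1A3 moves the other way, from 11733 to 16181 down to 3633 to 4555.

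The windows upstream of 3 of the called members are shown first, because these are the stretches in which the core motifs of NRF2 and of the aryl hydrocarbon receptor (AHR) were searched. They are the 250 bases before the transcription start in RefSeq (GRCh38.p14), read in the direction of the gene, for ALDH1A1 (chr9:72953054-72953303, minus strand), ALDH1A3 (chr15:100879581-100879830, plus strand) and ALDH3A2 (chr17:19648501-19648750, plus strand, the second of its 2 starts). Capitals mark GCGTG, the core of the site bound by the AHR, on either strand (CACGC on the other).
ALDH1A1: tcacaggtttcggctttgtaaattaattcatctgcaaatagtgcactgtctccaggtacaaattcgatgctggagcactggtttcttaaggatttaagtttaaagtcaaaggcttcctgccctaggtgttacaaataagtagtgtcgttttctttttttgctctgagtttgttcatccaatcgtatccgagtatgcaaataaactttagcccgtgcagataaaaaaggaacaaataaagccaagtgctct
ALDH1A3: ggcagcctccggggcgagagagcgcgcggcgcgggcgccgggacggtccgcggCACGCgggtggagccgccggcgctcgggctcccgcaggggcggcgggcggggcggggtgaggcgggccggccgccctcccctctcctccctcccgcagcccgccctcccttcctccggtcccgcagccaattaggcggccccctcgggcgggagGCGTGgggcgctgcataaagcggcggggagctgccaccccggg
ALDH3A2: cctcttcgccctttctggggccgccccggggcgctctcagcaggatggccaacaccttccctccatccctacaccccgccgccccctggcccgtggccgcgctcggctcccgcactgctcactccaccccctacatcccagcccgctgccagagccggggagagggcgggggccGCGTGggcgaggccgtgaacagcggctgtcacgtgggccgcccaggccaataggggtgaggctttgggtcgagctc

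RefSeq windows of 300 bases (250 before and 50 after the start) were matched for 8 of the 10 members, with 10 windows in all, and ALDH2 and ALDH3A1 had none. The core of the antioxidant response element, TGACNNNGC, to which NRF2 binds with a small MAF protein, was searched on both strands, and its last bases GC can be the first of GCGTG. It was in 0 of the 10 windows and in 13.3% of 35116 promoter windows of the same length. GCGTG was in 2 of the 10 windows and in 36.5% of all windows. In ALDH1A3 it began at position -43 from the start on the plus strand and at -197 on the minus strand, and in the second ALDH3A2 window at -76 and, within the transcribed part, at 43. ALDH1A1, which rose most, held neither motif in its window, while a member that fell and a member that rose both held GCGTG. A match is a description of letters, and elements outside these windows were not searched.

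The class 1 members, which include enzymes of retinaldehyde, moved in different directions. ALDH1A1 (ENSG00000165092, minus strand of chromosome 9 from 72900671 to 73080442 in hg38) encodes a cytosolic enzyme that oxidizes retinaldehyde and lipid aldehydes. Its normalized counts were 23.5, 30.3 and 39.2 in KYSE450 and 928, 995 and 919 in KEAP1null-KYSE450. The lines were far apart, with every edited library above every parental one, and the ratio of means was 30.6. Its log2 fold change was 4.92 (standard error, SE, 0.21, 95% confidence interval 4.47 to 5.36, adjusted p = 1.76e-09 from limma), rank 89 from the top of all tested genes. Under 19 alternative settings it stayed between 4.56 and 5.10. Those that change only the filter, the trend, the fold cutoff or the fold tested against leave a fold change as it is, here and for the other members. The parental level was low but above the floor in each library, and the relative spread there (coefficient of variation 25.3%) was wider than in the edited line (4.37%).

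ALDH1A3 (ENSG00000184254, plus strand of chromosome 15 from 100877714 to 100916626) makes retinoic acid from retinaldehyde and is a known marker of ALDH-positive tumour cells. KYSE450 libraries held 16181, 11733 and 15714 normalized counts, against 4555, 3633 and 3924 in KEAP1null-KYSE450. Every edited library was below every parental one, and the mean was 3.60-fold lower. This was a log2 fold change of -1.84 (SE 0.13, 95% confidence interval -2.12 to -1.56, adjusted p = 2.30e-07 from limma), with -1.99 to -1.66 over the alternatives. A long noncoding RNA on the opposite strand, ALDH1A3-AS1, shares 34.1% of the 150-base windows of the main ALDH1A3 transcript, and the NEBNext Ultra kit does not mark strand, so reads of the pair in the shared part cannot be told apart. The antisense gene itself overlapped between the lines (559, 446 and 445 against 548, 518 and 517 normalized counts) with a log2 fold change of 0.13.

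Counts of ALDH1A3 divided by those of ALDH1A1 in the same library were 688, 387 and 401 in KYSE450. In KEAP1null-KYSE450 they were 4.91, 3.65 and 4.27. ALDH1A3 thus stayed the more abundant of the pair in each library, but by a much smaller margin in the edited line. Per kilobase of the main transcript the same ratio was 234 to 416 in KYSE450 and 2.21 to 2.96 in KEAP1null-KYSE450.

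ALDH1B1 (ENSG00000137124, plus strand of chromosome 9 from 38392702 to 38398661), whose main transcript has 2 exons, encodes a mitochondrial enzyme close to ALDH2 that takes acetaldehyde and retinaldehyde. It had normalized counts of 6415, 6183 and 6453 in KYSE450 and 5779, 4799 and 5132 in KEAP1null-KYSE450. The edited libraries were all below the parental ones by a small step. The log2 fold change was -0.28 (95% confidence interval -0.49 to -0.075, adjusted p = 0.0263 from limma), which did not reach the fold threshold. The adjusted p was over 0.05 under 8 of 17 alternatives, up to 0.265, among them without KYSE450 library 2 (0.062) or 3 (0.0631) and without KEAP1null-KYSE450 library 2 (0.138) or 3 (0.0876).

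ALDH2 (ENSG00000111275, plus strand of chromosome 12 from 111766887 to 111817532) is the mitochondrial enzyme that clears most acetaldehyde after drinking, the step most tied to alcohol and esophageal cancer. Libraries of KYSE450 held 2417, 2493 and 2219 normalized counts, against 2938, 2530 and 2759 in KEAP1null-KYSE450. The closest libraries of the lines differed by little, and the log2 fold change of 0.21 had a 95% confidence interval from -0.010 to 0.42 (adjusted p = 0.103 from limma). A fold change of 2 in either direction lay outside that interval. In the main ALDH2 transcript 5.67% of windows are shared with a noncoding RNA on the same strand.

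The class 3 genes also split. ALDH3A1 (ENSG00000108602, minus strand of chromosome 17 from 19737984 to 19748943) encodes a cytosolic enzyme of the cornea and upper digestive tract that takes aromatic and medium-chain aldehydes and is a known AHR target. Normalized counts of ALDH3A1 were 53585, 45093 and 32352 in KYSE450 and 184812, 179049 and 167064 in KEAP1null-KYSE450. The parental libraries varied among themselves, but the lowest edited library was well above the highest parental one, and the mean was 4.05-fold higher. The log2 fold change was 2.05 (SE 0.16, 95% confidence interval 1.70 to 2.40, adjusted p = 6.32e-07 from limma), with 1.85 to 2.21 over the alternatives. ALDH3A1 took 0.0564% to 0.0945% of all normalized counts in KYSE450 libraries and 0.30% to 0.332% in KEAP1null-KYSE450 libraries.

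ALDH3A2 (ENSG00000072210, plus strand of chromosome 17 from 19648136 to 19685760) encodes the fatty aldehyde dehydrogenase of the endoplasmic reticulum, which is lost in Sjögren-Larsson syndrome. Normalized counts of ALDH3A2 were 18946, 20407 and 18681 in KYSE450 and 52512, 49151 and 47682 in KEAP1null-KYSE450. Libraries within a line were close together and the lines were apart, with a mean 2.57-fold higher in the edited line. This was a log2 fold change of 1.36 (SE 0.095, 95% confidence interval 1.16 to 1.57, adjusted p = 2.18e-07 from limma), and it lay between 1.32 and 1.47 under the alternatives. The count of ALDH3A1 over that of ALDH3A2 was 2.83, 2.21 and 1.73 in KYSE450 and 3.52, 3.64 and 3.50 in KEAP1null-KYSE450, without overlap.

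ALDH3B1 (ENSG00000006534, plus strand of chromosome 11 from 68008578 to 68029282) encodes a membrane-bound enzyme that takes medium- and long-chain lipid aldehydes. It had 427, 287 and 449 normalized counts in KYSE450 and 63.7, 72.4 and 76.7 in KEAP1null-KYSE450. All edited libraries were below the parental ones, and the mean was 5.47-fold lower. Its log2 fold change was -2.41 (SE 0.21, 95% confidence interval -2.87 to -1.95, adjusted p = 1.81e-06 from limma), rank 270 from the bottom of all tested genes, with -2.68 to -2.27 under the alternatives.

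**Figure D2:**
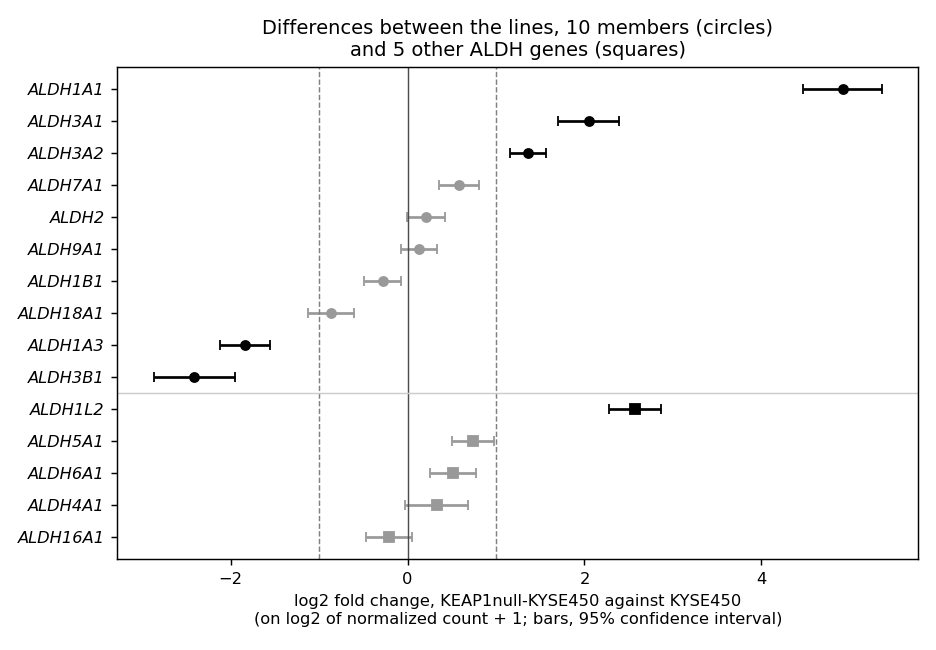
Log2 fold change of KEAP1null-KYSE450 against KYSE450 (horizontal axis) with its 95% confidence interval for the 10 members (circles) and 5 other tested ALDH genes (squares). Black marks genes called, grey those not called, and the dashed lines are a log2 fold change of 1 in either direction; the members run from 4.92 for ALDH1A1 to -2.41 for ALDH3B1.

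The members of amino acid and amine metabolism did not reach the fold threshold. ALDH7A1 (ENSG00000164904, minus strand of chromosome 5 from 126531200 to 126595362), known as antiquitin, oxidizes an aldehyde of lysine breakdown and is lost in pyridoxine-dependent epilepsy. Its normalized counts were 4710, 4788 and 4155 in KYSE450 and 7539, 6889 and 6074 in KEAP1null-KYSE450. The edited libraries were all higher, and the log2 fold change was 0.58 (95% confidence interval 0.36 to 0.81, adjusted p = 5.84e-04 from limma), below the fold threshold.

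ALDH9A1 (ENSG00000143149, minus strand of chromosome 1 from 165662216 to 165698562) oxidizes aminoaldehydes on the way to carnitine and GABA. Its normalized counts were 4207, 4951 and 4945 in KYSE450 and 5171, 5125 and 5111 in KEAP1null-KYSE450. The edited libraries lay just above the parental ones, and the log2 fold change of 0.13 had a 95% confidence interval from -0.074 to 0.34 (adjusted p = 0.270 from limma).

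ALDH18A1 (ENSG00000059573, minus strand of chromosome 10 from 95605941 to 95656711) encodes the mitochondrial enzyme of the first steps from glutamate to proline and, unlike the rest of the family, reduces its substrate. Its normalized counts were 12075, 10741 and 10098 in KYSE450 and 7268, 5354 and 5571 in KEAP1null-KYSE450. All edited libraries were lower, by a log2 fold change of -0.86 (95% confidence interval -1.13 to -0.60, adjusted p = 9.56e-05 from limma). It missed the fold threshold with all libraries and reached it, at -1.002, without KEAP1null-KYSE450 library 1.

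Levels between genes were compared as normalized counts per kilobase of all annotated exons. The summed level of the 10 members was 25340, 22224 and 19449 in KYSE450 and 58502, 55732 and 52712 in KEAP1null-KYSE450. The means were 22338 ± 2947 and 55649 ± 2896 (SD, n = 3 libraries each), with no overlap. The means of the log2 sums differed by 1.32, a 2.50-fold ratio. The exact permutation test gave p = 0.1 (two-sided), the smallest that 20 permutations allow. The members were chosen with earlier results of these data known, and ALDH3A1 was left out of the sums below after the data were seen. The p-values of all these sums are therefore descriptive and no independent support. Without ALDH3A1 the summed level was 11075 ± 464 in KYSE450 and 10013 ± 722 in KEAP1null-KYSE450, a log2 ratio of -0.15 with an exact permutation p = 0.2. The direction of that remainder depended on the length used. Without division by length it was 63256 ± 1944 against 80851 ± 5153 normalized counts (log2 ratio 0.35), and per kilobase of the main transcript 18106 ± 538 against 22489 ± 1392 (0.31), both with no overlap and an exact permutation p = 0.1 (SD, n = 3). On every one of these 3 scales the ratio was smaller without ALDH3A1 than with it. This follows by arithmetic, because ALDH3A1 itself was 4.05-fold higher, more than the full sum on any of these scales (2.42-fold to 2.94-fold).

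ALDH3A1 made up 54.5%, 52.3% and 42.9% of the summed per-kilobase level in the KYSE450 libraries. Its share was 81.5%, 82.8% and 81.7% in the KEAP1null-KYSE450 libraries. It was first in both lines by a wide margin. In KYSE450, ALDH18A1 and ALDH1A3 came next in level and overlapped each other, followed in order by ALDH1B1, ALDH9A1 and ALDH3A2, then by ALDH7A1 and ALDH2, which overlapped, and last by ALDH3B1 and ALDH1A1. In KEAP1null-KYSE450, ALDH3A2 came second, ALDH9A1, ALDH1B1 and ALDH18A1 followed with overlap between neighbours, and then came ALDH1A3, ALDH7A1 and ALDH1A1 (these last overlapping), ALDH2 and ALDH3B1. ALDH1A1 went from the last place, at 10.9 ± 2.76 per kilobase, to the eighth, at 334 ± 14.6, and ALDH3B1 from 58.6 ± 13.3 to the last place at 10.7 ± 1.00 (SD, n = 3). Annotated exons exceed the main transcript several times over for ALDH3A2 (15331 against 3703 bases) and ALDH7A1 (17914 against 4765 bases), so these stand low on this scale. Per kilobase of the main transcript ALDH3A2 came second in both lines, and ALDH3A1 made up 59.0% and 82.8%.

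**Figure D3:**
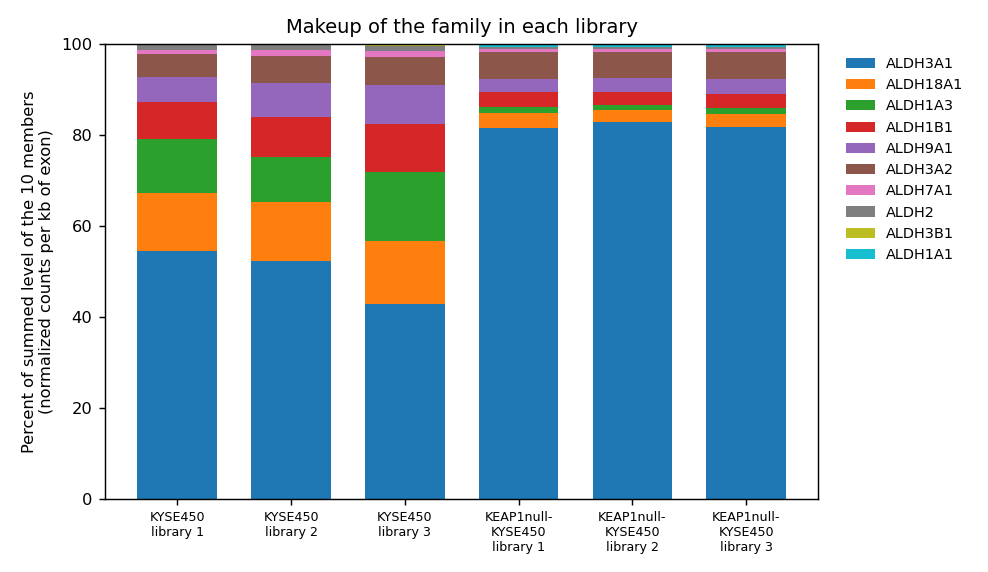
Percent of the summed per-kilobase level of the 10 members (vertical axis, stacked to 100) that each member made up in each of the 6 libraries. ALDH3A1, the lowest segment, takes 42.9% to 54.5% in KYSE450 and 81.5% to 82.8% in KEAP1null-KYSE450, while the segments of ALDH1A3 and ALDH18A1 shrink.

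ALDH3A2 and ALDH3A1 lie close together on chromosome 17, with SLC47A2 between them, and some of their neighbours were called as well. For each member the 10 tested genes on each side were taken by position. The 20 neighbours of ALDH3A1 had a median log2 fold change of 0.80, with 6 called higher and 0 lower, and those of ALDH3A2 had 0.50, with 6 called higher and 1 lower. Each of these counts includes the other member. With it left out the medians were 0.74 and 0.26, with 5 of 19 called higher around each. Over all tested genes 12.2% were called higher and 5.98% lower. Around the other 8 members the medians ran from -0.37 (ALDH9A1) to 0.31 (ALDH1A3), and 5 neighbours were called higher around ALDH1A1 (3 lower) and around ALDH7A1 (1 lower) as well. The tested genes from SLC47A1 to ULK2, in order SLC47A1, ALDH3A2, SLC47A2, the noncoding AC005722.2, ALDH3A1 and ULK2, were each called higher. These neighbours were singled out after their values were seen.

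SLC47A1 and SLC47A2 encode exporters of organic cations, and ULK2 a kinase of autophagy. SLC47A1 had 1583, 1161 and 1146 normalized counts in KYSE450 and 3302, 2545 and 2514 in KEAP1null-KYSE450 (log2 fold change 1.11). SLC47A2 had 231, 210 and 199 against 1409, 1405 and 1371 (2.71), and ULK2 had 424, 450 and 407 against 909, 1018 and 829 (1.10). None of these overlapped between the lines, which was also true of 57.8% of all tested genes. AKAP10, the next tested gene beyond ULK2, had 0.14. SLC47A2 overlaps the span of ALDH3A2 by 7473 bases on the opposite strand, but no 150-base window of the main ALDH3A2 transcript is shared with another gene. DNA copy number was not measured here, and its part in these differences was not tested.

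**Figure D4:**
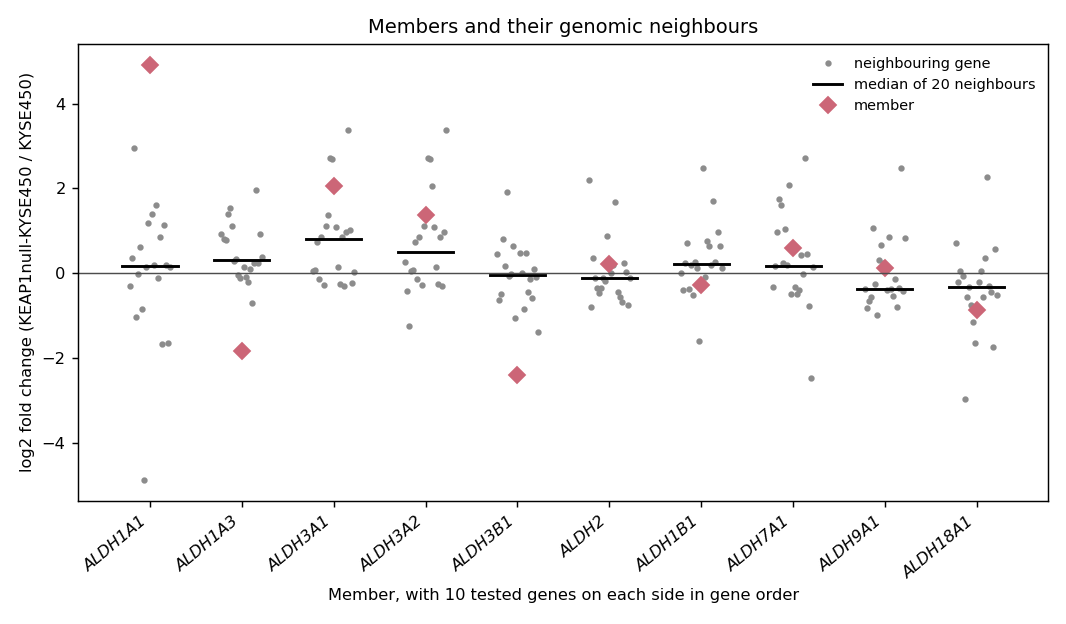
Log2 fold change (vertical axis) of each member (diamonds) and of the 10 tested genes on each side of it in gene order (dots), with the median of the 20 neighbours as a bar. The bars for ALDH3A1 (0.80) and ALDH3A2 (0.50) count each other as a neighbour and would be 0.74 and 0.26 without it; the other bars lie between -0.37 and 0.31.

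Of the 9 other ALDH genes, 5 were tested and 1 was called, where 18.2% of all tested genes were. Neither this list nor those below were tested as sets. The gene called was ALDH1L2, the mitochondrial enzyme that oxidizes formyl-tetrahydrofolate. It had 233, 221 and 194 normalized counts in KYSE450 and 1439, 1190 and 1238 in KEAP1null-KYSE450, with no overlap. It differed by 2.57 on the log2 scale (SE 0.14, limma adjusted p = 1.48e-08). The rest of those tested are named to complete the family. ALDH5A1, which ends GABA breakdown, had a log2 fold change of 0.74 and ALDH6A1, of valine breakdown, 0.52, both past the adjusted p but not the fold. ALDH4A1, of proline breakdown, had 0.33 and ALDH16A1 -0.21, neither past the adjusted p. ALDH1A2, the embryonic retinaldehyde dehydrogenase, and ALDH8A1 were at or below the floor in both lines.

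Upstream of the aldehydes stand alcohol and retinol dehydrogenases. Of 16 such genes 7 were tested and 1 was called, where 18.2% of all tested genes were. The gene called was ADH7, an alcohol dehydrogenase of the upper digestive tract with high activity on ethanol and retinol. It had 6.42, 1.01 and 0.932 normalized counts in KYSE450 and 163, 193 and 153 in KEAP1null-KYSE450. The parental libraries were at a few reads or fewer, with 1 above the floor, while the edited libraries were all far above it. With a parental mean of 2.79 it passed the filter only through the edited line, where it is high, so its call is no independent support. The fitted log2 fold change of 5.79 depends on the pseudocount and ran from 3.83 to 6.43 over the alternatives.

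Among 15 genes of retinoid storage, binding, breakdown and receptors, 9 were tested, 2 were called higher and 1 lower. Over all tested genes 12.2% were called higher and 5.98% lower. RARB, a retinoic acid receptor that is itself a retinoic acid target, had 400.0, 431 and 321 normalized counts in KYSE450 and 1416, 1380 and 1274 in KEAP1null-KYSE450 (log2 fold change 1.83, adjusted p = 3.43e-07 from limma). RXRA, the partner receptor, had 3912, 2964 and 3060 against 7981, 7510 and 7485 (1.22, adjusted p = 2.61e-06 from limma). Both receptors were higher in every edited library. CYP26A1, which breaks retinoic acid down and is also a retinoic acid target, had 51.3, 64.7 and 52.2 against 27.7, 22.4 and 19.2 (-1.25, adjusted p = 6.54e-03 from limma), and its call was lost with a pseudocount of 10 and in both count tests on 4 libraries. STRA6, a retinol uptake receptor named after its values were seen, had 22.5, 25.3 and 12.1 against 0 in each edited library. Its mean was under the filter, and the level was at least 6.76-fold lower against a floor of 3 reads per library.

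Of 8 proline genes 7 were tested and 1 was called, where 18.2% of all tested genes were. PRODH, which starts proline breakdown, was the 1 called (log2 fold change -2.18), at 17.1, 23.2 and 10.3 normalized counts in KYSE450 and 6.46, 6.12 and 0 in KEAP1null-KYSE450. It passed the filter only through KYSE450, with means of 16.9 and 4.19, so its call is no independent support. The call was lost without KEAP1null-KYSE450 library 3 (-1.23) and under 7 other settings, and the gene fell below the filter without KYSE450 library 1 or 2. Past the adjusted p, 4 of the 7 were lower and 1 was higher, where 25.5% of all tested genes were lower and 24.3% higher.

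Of 8 genes of the AHR and its known targets 6 were tested, with 1 called in each direction. Over all tested genes 12.2% were called higher and 5.98% lower. NQO1, a quinone reductase that is a target of both AHR and NRF2, had 15681, 17100 and 17093 normalized counts in KYSE450 and 104116, 108806 and 110351 in KEAP1null-KYSE450 (log2 fold change 2.70, adjusted p = 3.94e-10 from limma). CYP1B1, a monooxygenase and AHR target, had 9863, 9283 and 9039 against 5597, 4088 and 4338 (-1.02, adjusted p = 1.77e-05 from limma). The 2 genes moved apart in every library, but CYP1B1 stood at the fold threshold, and its call was lost under 10 settings, among them without KYSE450 library 1 (-0.98), KEAP1null-KYSE450 library 2 (-0.93) or KEAP1null-KYSE450 library 3 (-0.97).

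Of 11 genes next to ALDH7A1 and ALDH9A1 in lysine, choline and polyamine metabolism 8 were tested, with 2 called higher and 0 lower. Over all tested genes 12.2% were called higher and 5.98% lower. BBOX1, which makes carnitine from the product of ALDH9A1, had 4.28, 7.08 and 4.66 normalized counts in KYSE450 and 65.5, 81.6 and 63.6 in KEAP1null-KYSE450 (log2 fold change 3.51). DMGDH, of choline breakdown, had 8.56, 15.2 and 18.6 against 80.3, 97.9 and 149 (2.88, adjusted p = 5.28e-05 from limma). Both were low in the parental line and higher in every edited library. BBOX1, with a parental mean of 5.34, passed the filter only through the edited line, so its call is no independent support.

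**Figure D5:**
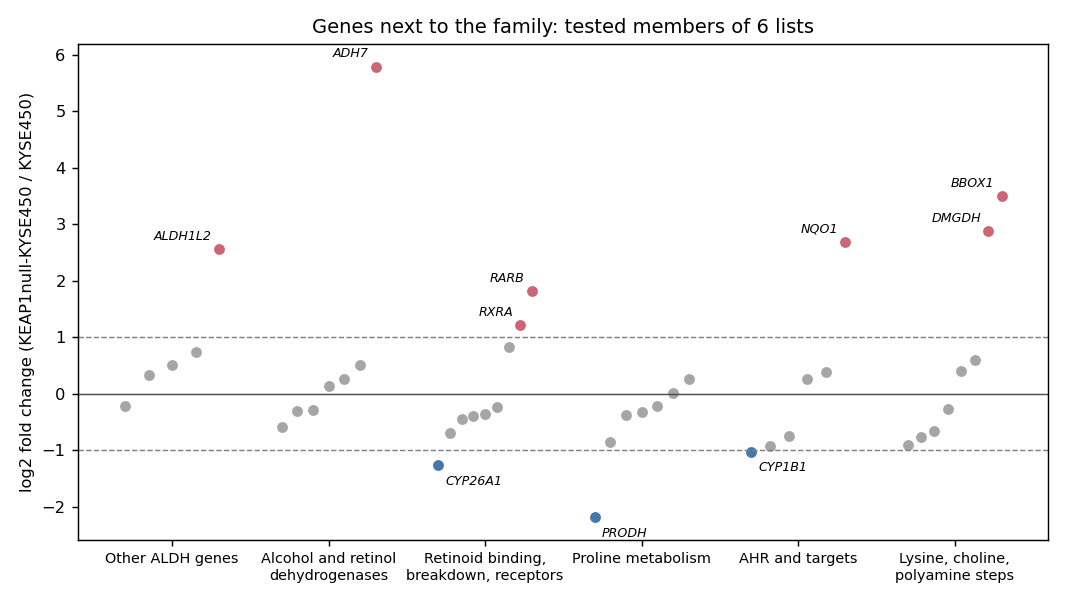
Log2 fold change (vertical axis) of the tested genes in 6 lists next to the family, with genes called higher or lower labelled by name, the others in grey, and dashed lines at a log2 fold change of 1 in either direction. ADH7 at 5.79, BBOX1 at 3.51 and DMGDH at 2.88 lie highest, and PRODH at -2.18 lies lowest.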

How the data were processed

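RNA of 3 KYSE450 and 3 KEAP1null-KYSE450 libraries was analysed. The deposited values are a signal, reads of a gene divided by the size factor of its library (normalized counts). Per the methods and the submitters' processing notes, the authors aligned reads to hg38 with STAR (2.6.90c) and counted them with featureCounts (1.5.1), with FastQC (0.11.5) and cutadapt (1.12) also listed. The methods name RefSeq, but rows carry Ensembl identifiers, 273 of 58884 without a symbol. Columns carry no replicate number, so library numbers are names only. All values were whole multiples of 1 read (within 0.05 reads), and 4 of 6 libraries gave reads that the step size could establish.

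On log2 of these values plus 1, limma (3.58.1 in R 4.3.3) was fitted with a trended eBayes to the 16701 genes whose mean reached 10. The scale makes changes of low genes look smaller. Tests were two-sided. A test on simulated data, with levels and spread taken from these libraries, was run after the fits, and its outcome is not reported here. Positions and lengths came from gencode v44 (hg38). Named were the 10 members, of each list up to 4 called genes by size, and KEAP1. The members and lists were chosen with earlier results of these data known. Alternatives were pseudocounts of 0.1 and 10, no filter or a mean of 100, rescaling to the same total, quantile normalization, libraries left out in turn, eBayes without trend, no fold cutoff, a test against a fold of 2, and edgeR (4.0.16) and DESeq2 (1.42.0) on recovered reads of 4 and 6 libraries. Protein identity was not analysed here. The values of 1 gene of the retinoid list are not reported here.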

Additional observations from a re-analysis of the deposited data

How the results depend on the processing

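All 5 calls among the members held under 18 of 18 alternatives with the same call rule or a stricter one, and without a fold cutoff 4 members were lower instead of 2 (ALDH1B1 at -0.28 and ALDH18A1 at -0.86 were added) and ALDH7A1 at 0.58 joined the higher ones. ALDH18A1 ran from -1.002 to -0.78 with libraries left out in turn and was called in the first case, without KEAP1null-KYSE450 library 1. Over all genes, those called higher were 2045 as reported, 875 with a mean of at least 100, 4060 without a fold cutoff and 626 against a fold of 2, and those called lower 999, 4251 and 395 (without a cutoff and against a fold of 2). Quantile normalization changed the split to 1388 higher and 1289 lower. edgeR called 1826 and 872 and DESeq2 1623 and 877 on the reads of 4 libraries. The log2 fold change of KEAP1 turned from -0.017 to 0.016 with rescaling, 0.14 with quantile normalization, 0.034 without KYSE450 library 1, 0.040 without KEAP1null-KYSE450 library 2 (-0.072 to 0.040 with each library left out) and 0.011 with edgeR on 6 libraries. The summed level gave 1.32 with all members and -0.15 without ALDH3A1, but the latter was 0.35 without division by length and 0.31 by the main transcript. The share of ALDH3A1 was 40.4% and 68.6% without division by length and 59.0% and 82.8% by the main transcript. The fits on 6 libraries' reads, the main transcript and the sums without ALDH3A1 were chosen after seeing the data.

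Counts in the other lists were small and moved with the filter and the fold rule. Without a fold cutoff 3 other ALDH genes were higher and 0 lower, and alcohol and retinol genes had 2 higher and 1 lower. Retinoid genes then had 2 higher and 3 lower, and proline genes 1 higher and 4 lower. AHR genes had 3 higher and 3 lower, as did lysine, choline and polyamine genes. Under that rule 24.3% of all tested genes were higher and 25.5% lower. With a mean of at least 100 the alcohol and retinol list and the lysine, choline and polyamine list had 0 higher, and the retinoid and proline lists 0 lower, because the called genes there were not tested. With no filter 1 alcohol and retinol gene and 2 retinoid genes were lower and 0 proline genes. Against a fold of 2, 1 retinoid gene was higher and 0 were lower in the retinoid, proline and AHR lists. The retinoid list had 0 lower with a pseudocount of 10 and in both count tests on 4 libraries, 2 with quantile normalization, and 1 to 2 with libraries left out. The proline list had 0 lower with a pseudocount of 0.1 or 10, without trend and in both count tests on 4 libraries, and 0 to 1 with libraries left out. The AHR list had 0 lower with rescaling, quantile normalization and all 4 count fits, and 0 to 2 with libraries left out. Genes added included STRA6, which passed the filter when any KEAP1null-KYSE450 library was left out, LRAT with quantile normalization, and ARNT without KYSE450 library 3. No paired analysis was possible because the columns of the matrix carry no replicate numbers. With 3 libraries a line and 1 clone, differences between clones were not measured.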
